A study of Mus musculus with 8 samples.

Results

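The 4 genes described here, *D3Ertd751e*, *Mpp6*, *Tmem265* and *4933408B17Rik*, are little-studied mouse genes whose estimated counts differed between the 2 groups of brown adipose tissue (BAT) libraries. They were chosen from this same contrast, because they were past the threshold of the gene test whichever library was left out, and they are 4 of the 33641 genes in the files. Their levels and differences are therefore given as a description, without a test. The question asked of them was which of their transcripts carry the difference. The files hold 28 transcripts of these genes among 105129, with 15 of *D3Ertd751e*, 9 of *Mpp6*, 2 of *Tmem265* and 2 of *4933408B17Rik*.

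Poly(A) RNA was sequenced from the interscapular BAT of 8 C57BL/6 mice aged 28 weeks, to ask how gene expression in BAT depends on HuR, the RNA-binding protein encoded by *Elavl1*. The labels name 3 libraries as wild-type (A7, A8 and A12, called control here) and 5 as HuR knockout (A24, A25, A26, A29 and A31, called *Adipo-HuR-/-* here). *Adipo-HuR-/-* mice carry floxed HuR alleles and a Cre recombinase driven by the adiponectin promoter, so that deletion is directed to adipocytes and other cells of the tissue keep the gene. Controls were littermates that carried Cre without a floxed allele, or 1 or both floxed alleles without Cre, and the labels do not tell these kinds apart. The group sizes in the study's own text are the reverse of those in the labels, and the labels were followed.

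Library depth was 60622522, 51751002 and 50673814 (A7, A8, A12). For the knockout label it was 18264754, 17558090, 67498055, 50893173 and 58727739 (A24, A25, A26, A29, A31). A24 and A25 were the shallow libraries, and both carried the same label. Levels below are CPM (counts relative to the size of the library), scaled between libraries by TMM, a trimmed mean that evens out differences in RNA composition. All p-values given for other genes cover the spread between these animals.

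*Elavl1*, the targeted gene, was at 50.6, 48.0 and 49.2 CPM (A7, A8, A12). It was at 61.9, 47.2, 43.4, 61.3 and 61.2 CPM (A24, A25, A26, A29, A31). The groups overlapped, and the log2 fold change was 0.16 (standard error, SE, 0.162; Benjamini-Hochberg adjusted p = 0.667, edgeR's quasi-likelihood test, as for every adjusted p below marked edgeR). The total of *Elavl1* did not fall under the knockout label, so groups are called by their labels throughout, and every direction below is between labels. This total sums reads over the whole gene in all cells of the tissue, and the floxed part was not read on its own.

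The tissue label was checked against its markers. *Ucp1*, the uncoupling protein of brown fat, averaged 8130 CPM over the 8 libraries, and all 8 brown adipocyte genes of the list were tested. *Fabp4*, a fatty acid carrier of adipocytes, averaged 9306 CPM. For the mean log2 CPM of the brown adipocyte and adipocyte lists, exact permutation p between the labels was 0.5 and 0.714. With total counts in place of TMM, which moved the median of all genes by 0.23, exact permutation p was 0.0714 and 0.0536. The adipocyte difference then turned from −0.0544 to 0.183.

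Skeletal muscle genes, which can enter a dissection of interscapular fat, did not spread evenly. The 14 genes of that list summed to 3475, 2286 and 54.1 CPM (A7, A8, A12), all labelled control. They summed to 42.0, 30.4, 21.7, 43.6 and 379 CPM (A24, A25, A26, A29, A31). *Myh4*, a fast myosin heavy chain and the most abundant of them, was at 1048 CPM in A7 and 0.0209 in A12. The mean log2 CPM of the list was lower by 5.13 in the libraries labelled *Adipo-HuR-/-*, with an exact permutation p of 0.0357 and 0.393 after Benjamini-Hochberg adjustment over 11 lists. Of its 14 genes, 3 were past the threshold of the gene test, all lower (*Myh7*, *Myl1* and *Myl2*, named after their values were seen), beside 0.707% of all genes tested. *Myh7* and *Myl2* were at 0.0259 and 0.0418 CPM in A12, within the range of the other group, so that A7 and A8 carried those differences.

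In bulk tissue, fewer cells of a type and less RNA per cell cannot be told apart. The part of muscle RNA in the sizes of the differences was not tested beyond a covariate, with which the log2 fold changes were −1.69 for *D3Ertd751e*, −1.20 for *Mpp6*, 2.69 for *Tmem265* and 2.94 for *4933408B17Rik*. With that covariate *Mpp6* was no longer past the threshold of the gene test, and the other 3 were.

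After adjustment over the 11 lists, none was under 0.05, skeletal muscle included. The smallest possible exact permutation p is 0.0179, so no list could have passed this adjustment on its own. For the others, exact permutation p was 0.893 for smooth muscle (led by *Myh11*, a myosin at 14.1 CPM on average), 0.518 for endothelial cells (*Cdh5*, a cadherin of vessels, 128 CPM), 0.964 for macrophages (*Lyz2*, a lysozyme, 45.7 CPM) and 0.5 for lymphocytes (*Cd79a*, part of the B cell receptor, 0.510 CPM). For Schwann cells it was 0.179 (*Mbp*, a myelin protein, 39.9 CPM), for fibroblasts 0.643 (*Dcn*, the matrix protein decorin, 67.2 CPM) and for white adipocytes 0.554 (*Lep*, the hormone leptin, 21.6 CPM). Testis germ cell genes, listed because clone names that end in Rik often come from testis cDNA libraries, gave 0.214. In that list *Prm1* and *Tnp1* were at 0 in every library, and *Ddx4* led with 0.170 CPM. With total counts in place of TMM, exact permutation p for smooth muscle was 0.0714.

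The proteins of the 4 genes differ in how much is known of them. *Mpp6*, also called Pals2, belongs to the p55 family of membrane-associated guanylate kinases (MAGUKs), scaffold proteins that hold adhesion molecules and polarity proteins together under the cell membrane through PDZ, SH3 and guanylate kinase-like domains. Its L27 domains bind Lin7 proteins, and family members bind adhesion molecules of the Cadm group. *D3Ertd751e* encodes a small protein of unknown function that is conserved in mammals, *Tmem265* a predicted transmembrane protein, and *4933408B17Rik* a protein known by the name of its cDNA clone.

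*D3Ertd751e* and *Mpp6* were lower, and *Tmem265* and *4933408B17Rik* higher, in the libraries labelled *Adipo-HuR-/-*. All 4 were among the 105 of 14851 tested genes past the threshold of edgeR's test (0.707%; adjusted p of at most 0.05 and a fold change of at least 1.5). That share says nothing of these genes, which were chosen by this test. Their groups did not overlap, as was so for 11.5% of all genes tested.

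*Mpp6* was at 22.7, 27.6 and 21.8 CPM (A7, A8, A12). It was at 10.9, 8.21, 8.46, 10.3 and 10.4 CPM (A24, A25, A26, A29, A31). Every library of the second group lay well below the lowest control. The mean fell from 24 ± 3.13 (SD, n = 3) to 9.65 ± 1.22 CPM (SD, n = 5), and the log2 fold change was −1.32 (SE 0.155).

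*D3Ertd751e* was at 16.0, 17.9 and 22.1 CPM (A7, A8, A12). In the other group it was at 5.70, 5.31, 6.79, 7.92 and 6.21 CPM (A24, A25, A26, A29, A31). No library of either label came near the other group. The means of 18.7 ± 3.09 (SD, n = 3) and 6.38 ± 1.02 CPM (SD, n = 5) gave a log2 fold change of −1.54 (SE 0.176).

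*Tmem265* was at 0.522, 0.788 and 0.801 CPM (A7, A8, A12). It reached 6.28, 3.43, 4.84, 4.72 and 4.84 CPM (A24, A25, A26, A29, A31). A24 and A25, the shallow libraries, held the highest and the lowest value of their group. From 0.704 ± 0.158 (SD, n = 3) to 4.82 ± 1.01 CPM (SD, n = 5), the log2 fold change was 2.79 (SE 0.290).

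*4933408B17Rik* was the lowest of the 4 and rested on few reads. Its estimated counts were 10, 8 and 9 (A7, A8, A12), with 95% Poisson intervals from 4.8 to 18.4, from 3.45 to 15.8 and from 4.12 to 17.1 that cover counting error only. They were 26, 34, 99, 80 and 93 (A24, A25, A26, A29, A31). The control counts were small although these libraries were deep, and A24 and A25 gave higher counts from fewer reads.

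In CPM, *4933408B17Rik* was at 0.162, 0.203 and 0.188 (A7, A8, A12). Its level was 1.47, 1.61, 1.47, 1.52 and 1.41 CPM (A24, A25, A26, A29, A31). Within each label the libraries lay closer together, relative to their mean, than for the other 3 genes. Means were 0.184 ± 0.0206 (SD, n = 3) and 1.49 ± 0.0765 CPM (SD, n = 5). Counting error at such small counts is wider than this spread, so the closeness is not read as a trait of the gene. The log2 fold change was 3.01 (SE 0.314).

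**Figure D1:**
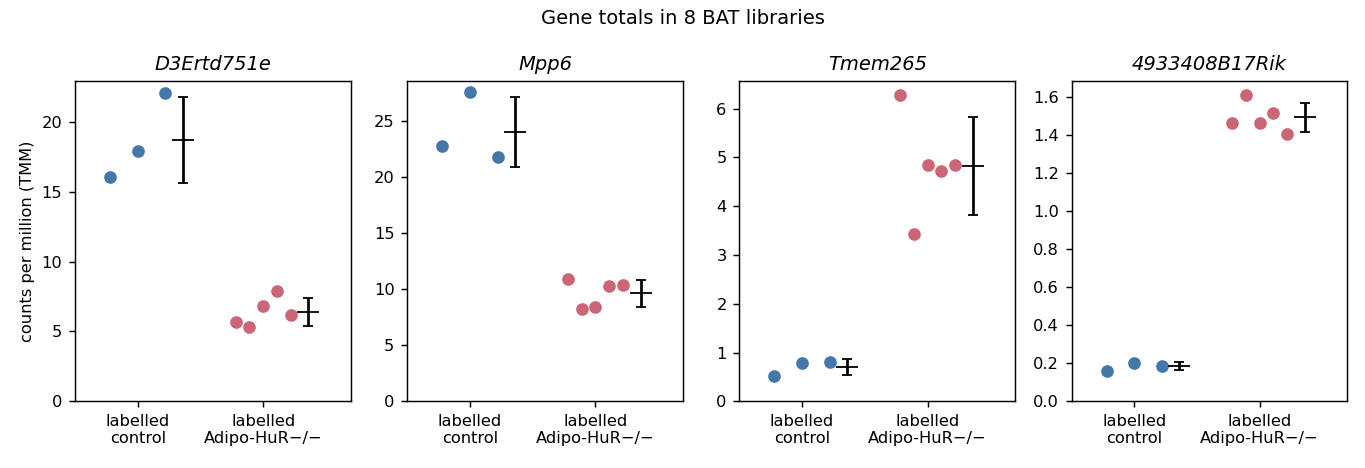
CPM (vertical axis, scaled by TMM, from 0) of each gene in the 3 libraries labelled control (blue) and the 5 labelled *Adipo-HuR-/-* (red), in the order A7, A8, A12 and A24, A25, A26, A29, A31. Points are libraries and black marks are means with SD; the groups do not overlap in any panel.

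The rule that chose the genes has a limit, and the values on both sides of it were close. The largest adjusted p over the 8 fits that each left out 1 library was 0.0265 for *Tmem265*, 0.0320 for *4933408B17Rik*, 0.0340 for *D3Ertd751e* and 0.0387 for *Mpp6*, as values that chose them and not as tests. In all, 9 genes were past the threshold in every one of these fits, and 3 of the other 5 had smaller values than any of the 4. Just inside the limit of 0.05 lay *Gm12663* with 0.0463, and just outside lay *Lyrm7* with 0.0552 and *Gm6685* with 0.0581 (named after their values were seen). Without A26 the values of *D3Ertd751e* and *Mpp6* were at their largest, and without A7 those of the other 2 genes. With A24 and A25 both left out, log2 fold changes were −1.43 for *D3Ertd751e*, −1.31 for *Mpp6*, 2.78 for *Tmem265* and 2.98 for *4933408B17Rik*. Of the 4 genes, *Tmem265* alone was then past the threshold, and *D3Ertd751e*, *Mpp6* and *4933408B17Rik* were not.

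Levels of different genes were compared per kilobase of transcript. In the libraries labelled control, *Mpp6* was highest with 14.9 ± 4.38 CPM per kilobase (SD, n = 3), then *D3Ertd751e* with 5.98 ± 1.04, *Tmem265* with 0.676 ± 0.136 and *4933408B17Rik* with 0.0805 ± 0.0107. No neighbours in this order overlapped between libraries. In those labelled *Adipo-HuR-/-* the order was *Mpp6* with 5.83 ± 1.47 CPM per kilobase (SD, n = 5), *Tmem265* with 4.59 ± 0.955, *D3Ertd751e* with 2.22 ± 0.282 and *4933408B17Rik* with 0.641 ± 0.0274. Here the ranges of *Mpp6*, from 4.27 to 7.73, and *Tmem265*, from 3.25 to 5.95, overlapped. Within each library *Mpp6* was the higher of the 2, except in A26 with 4.43 against 4.59. This order was not tested.

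Apart from the step between the labels, the 4 genes followed each other to unlike degrees. As deviations of log2 CPM from the group means over 8 libraries, Pearson's r was 0.05 between *D3Ertd751e* and *Mpp6*, and 0.096 between *Tmem265* and *4933408B17Rik*. It was 0.609 between *Mpp6* and *Tmem265*, which went in opposite directions between the labels. For *D3Ertd751e* it was 0.412 with *Tmem265* and 0.114 with *4933408B17Rik*, and between *Mpp6* and *4933408B17Rik* it was −0.005. These values are descriptions, since all 4 genes were read in the same libraries, which differed in depth.

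Transcripts were read next. The deposited values divide each read that fits several transcripts among them, so a transcript's share is an estimate and is least certain where transcripts have no bases of their own. Of the 41808 transcripts tested with the same model, 4 were past the threshold (0.00957%), and none of them was among the 11 tested transcripts of the 4 genes. At an unadjusted p under 0.05 there were 7 of those 11, beside 8.17% of all transcripts tested, and limma voom called 0 of the 11 and 5 of all. In 6 of the 11 the groups were apart, against 7.42% of all transcripts tested. The 11 belong to genes chosen for this contrast, so these counts describe them and test nothing.

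In *D3Ertd751e*, at chr3:41742611-41803320 on the plus strand (GRCm38, GENCODE M21), 2 of the 15 transcripts held at least 5% of the gene's count. *D3Ertd751e-203* was at 14.5, 8.07 and 15.6 CPM (A7, A8, A12), against 3.73, 3.97, 5.07, 6.60 and 3.58 (A24, A25, A26, A29, A31). *D3Ertd751e-208* was at 1.23, 8.83 and 5.95 CPM (A7, A8, A12), against 1.54, 0.886, 1.28, 0.937 and 2.17 (A24, A25, A26, A29, A31). The groups did not overlap for *D3Ertd751e-203* and did for *D3Ertd751e-208*, through A7.

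Of the difference between the group means of *D3Ertd751e*, *D3Ertd751e-203* made up 66.2% and *D3Ertd751e-208* 32.3%. Without A8 these parts were 82.7% and 17.6%, and without A7 they were 53.3% and 44.3%. Their log2 fold changes were −1.52 (SE 0.303) and −2.04 (SE 0.597). The share of *D3Ertd751e-203* ran from 45.0% (A8) to 90.4% (A7) of the gene's count among controls, and from 57.6% (A31) to 83.3% (A29) in the other group. This spread within the controls was wider than the step between the labels, where mean shares were 68.7% and 71.2%. Neither transcript has a base that no other transcript of the gene holds. The other 13 transcripts reached at most 0.452 CPM in any library, and 4 of them were at 0 in all 8.

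The division between *D3Ertd751e-203* and *D3Ertd751e-208* turns on a pair of coding exons and on 1 exon in the 5′ untranslated part. *D3Ertd751e-203* holds coding exons at chr3:41753589-41753640 (52 bases) and chr3:41753724-41753923 (200 bases), which *D3Ertd751e-208* skips. Together they are 252 bases, a whole number of 84 codons, so the coding part of 576 bases in *D3Ertd751e-203* is 324 bases in *D3Ertd751e-208* in the same frame. Both are shown with 20 bases of the exons on each side, from the plus strand of GENCODE's transcripts. The capitals mark the bases that *D3Ertd751e-203* holds and *D3Ertd751e-208* skips.

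D3Ertd751e-203: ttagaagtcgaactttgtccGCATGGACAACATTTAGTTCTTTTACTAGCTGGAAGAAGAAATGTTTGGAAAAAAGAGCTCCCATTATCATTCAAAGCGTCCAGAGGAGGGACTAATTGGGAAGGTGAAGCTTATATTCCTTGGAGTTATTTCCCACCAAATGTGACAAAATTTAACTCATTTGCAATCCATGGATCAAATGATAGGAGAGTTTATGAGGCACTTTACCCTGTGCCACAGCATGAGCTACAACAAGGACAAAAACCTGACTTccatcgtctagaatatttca
D3Ertd751e-208: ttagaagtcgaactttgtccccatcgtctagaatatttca

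Summed over the 8 transcripts of *D3Ertd751e* that hold both exons, levels were 14.7, 8.77 and 15.8 CPM (A7, A8, A12), and between 3.82 (A24) and 6.73 (A29) in the other group. The 3 transcripts that span the place without these exons summed to 1.27, 9.16 and 6.23 CPM (A7, A8, A12), and to between 0.886 (A25) and 2.22 (A31). The share with both exons was 70.9% ± 21.6 (SD, n = 3) in control and 76.3% ± 10.2 (SD, n = 5) in the other group. Forms with and without the exons were thus both lower on average, and their proportion did not move beyond the spread of libraries.

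*Mpp6*, at chr6:50110241-50198939 on the plus strand, had 4 transcripts with at least 5% of its count in either group. *Mpp6* transcript-201 led with 14.2, 16.9 and 14.6 CPM (A7, A8, A12), against 4.94, 6.30, 4.79, 6.35 and 4.68 (A24, A25, A26, A29, A31). *Mpp6* transcript-202 was at 5.49, 4.03 and 4.94 CPM (A7, A8, A12), against 2.36, 1.54, 1.93, 2.02 and 2.44 (A24, A25, A26, A29, A31). For both, every library labelled *Adipo-HuR-/-* lay below every control.

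The third coding form of *Mpp6* did not share that pattern. *Mpp6* transcript-209 was at 1.60, 1.16 and 1.04 CPM (A7, A8, A12), against 1.45, 0.304, 1.38, 0.886 and 1.79 (A24, A25, A26, A29, A31). The groups of transcript-209 overlapped, with a log2 fold change of −0.17 (SE 0.574) beside −1.56 (0.198) for transcript-201 and −1.28 (0.283) for transcript-202. The sign of transcript-209 turned without A7 (0.01), without A25 (0.10), without A24 and A25 (0.05) and with total counts only (0.06). The difference between these transcripts was not tested. Of its bases, 14.1% are in no other transcript of the gene, while transcript-201 and transcript-202 have none of their own. *Mpp6* transcript-205, a retained intron form, was at 3.95 CPM in A8, 1.71 in A24, 0.909 in A31, 0.261 in A12, 0.147 in A29 and 0 in A7, A25 and A26.

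Of the difference between the group means of *Mpp6*, transcript-201 made up 68.4%, transcript-202 19.2%, transcript-205 5.91% and transcript-209 0.715%. The part of transcript-205 came from A8, without which it was −3.35%, and that of transcript-209 was −0.439% without A7 and −0.799% without A25. The share of transcript-201 was 62.6%, 61.1% and 67.3% (A7, A8, A12). It was 45.4%, 76.7%, 56.6%, 61.5% and 45.2% (A24, A25, A26, A29, A31), so that A25 lay above and 3 libraries below all controls. The remaining 5 transcripts reached at most 1.33 CPM in a library. One of them, transcript-204, made up 4.71% of the difference (log2 fold change −1.51, SE 0.642), and its groups lay apart only narrowly, with 0.722 CPM in A12 and 0.715 in A29.

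*Mpp6* transcript-201 and *Mpp6* transcript-202 differ in a coding exon of 42 bases, or 14 codons, at chr6:50176877-50176918, which keeps the reading frame. It is shown as above, with the capitals on the exon that transcript-202 skips.

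Mpp6 transcript-201: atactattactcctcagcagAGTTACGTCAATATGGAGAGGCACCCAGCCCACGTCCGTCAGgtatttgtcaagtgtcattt
Mpp6 transcript-202: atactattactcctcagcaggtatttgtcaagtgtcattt

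The 3 transcripts of *Mpp6* with this exon summed to 14.4, 16.9 and 14.8 CPM (A7, A8, A12), against 4.95, 6.30, 4.87, 6.50 and 4.71 (A24, A25, A26, A29, A31). The 2 that skip it summed to 7.09, 5.19 and 5.97 CPM (A7, A8, A12), against 3.81, 1.84, 3.31, 2.90 and 4.23 (A24, A25, A26, A29, A31). Neither form overlapped between the groups. Log2 ratios of the means were −1.49 with the exon and −0.92 without it. The share with the exon was 71.6% ± 4.75 (SD, n = 3) in control and 63.0% ± 10.1 (SD, n = 5) in the other group. There it ran from 52.6% (A31) to 77.4% (A25), so the shares overlapped. These shares leave out the remaining transcripts, and the transcripts used held between 79.9% (A8) and 99.1% (A25) of the gene's count.

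*Tmem265*, at chr7:127561390-127566940 on the plus strand, was nearly all 1 transcript. *Tmem265* transcript-201 was at 0.491, 0.788 and 0.801 CPM (A7, A8, A12), against 6.28, 3.43, 4.84, 4.61 and 4.84 (A24, A25, A26, A29, A31). It held between 94.0% and 100% of the gene's count in every library and 99.7% of the difference between the means, a log2 fold change of 2.74 (SE 0.367). *Tmem265* transcript-202 was at 0 in 6 of the 8 libraries and reached at most 0.107 CPM.

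The count of *Tmem265* is uncertain for another reason. *Gm42715*, a gene model on the same strand that runs from the exons of *Srcap* on through *Tmem265*, holds 100% of the 1263 exonic bases of *Tmem265*, so reads from there were divided between both genes. *Gm42715* was at 2.42, 8.84 and 3.80 CPM (A7, A8, A12), against 15.5, 7.40, 13.4, 16.0 and 17.1 (A24, A25, A26, A29, A31). The groups overlapped through A8 and A25 (log2 fold change 1.48, SE 0.415, adjusted p = 0.113, edgeR). *Gm42715* was past the threshold in DESeq2's Wald test, and also without A8 and with total counts only. Over the fits that left out 1 library its log2 fold change lay between 1.14 and 2.17.

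The sum of *Tmem265* and *Gm42715* was 2.94, 9.63 and 4.60 CPM (A7, A8, A12), against 21.7, 10.8, 18.2, 20.7 and 22 (A24, A25, A26, A29, A31). It did not overlap between the groups, although A8 and A25 came close. The log2 ratio of the means was 1.71, beside a fitted log2 fold change of 2.79 for *Tmem265* alone. *Gm42715* transcript-201, at 3.45 CPM on average in control and 12.2 in the other group, has 12746 bases. Of these, 1263 are shared with *Tmem265*, so the sum also takes in reads from outside *Tmem265*. The part of the sum that came from the shared bases was not tested. *Srcap*, a chromatin remodelling ATPase whose last exon ends 170 bases before *Tmem265*, was at 89.5, 51.9 and 71.1 CPM (A7, A8, A12), and between 29 (A24) and 83.0 (A26) in the other group. Its groups overlapped, with a log2 fold change of −0.16 (adjusted p = 0.831, edgeR).

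*4933408B17Rik*, at chr18:34579846-34597468 on the minus strand, has a coding transcript, *4933408B17Rik-201*, and a transcript marked for nonsense-mediated decay, *4933408B17Rik-202*, that adds an exon of 72 bases at chr18:34584214-34584285. *4933408B17Rik-201* was at 0.102, 0 and 0.188 CPM (A7, A8, A12), against 0.832, 1.61, 1.47, 1.25 and 0.818 (A24, A25, A26, A29, A31). *4933408B17Rik-202* was at 0.0603, 0.203 and 0 CPM (A7, A8, A12), against 0.634, 0, 0, 0.263 and 0.591 (A24, A25, A26, A29, A31). The groups did not overlap for *4933408B17Rik-201* and overlapped for *4933408B17Rik-202*.

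Of the difference in *4933408B17Rik*, *4933408B17Rik-201* made up 84.0% and *4933408B17Rik-202* 16.0% (9.56% without A24 and 10.3% without A31), with log2 fold changes of 3.55 (SE 0.951) and 1.66 (1.68). The log2 fold change of *4933408B17Rik-202* was 3.01 without A8 and 1.09 without A12, and it did not pass the filter of low counts without A24, A29 or A31. That of *4933408B17Rik-201* was between 3 (without A8) and 4.41 (without A12) over the 8 omissions. Whole libraries went to 1 transcript: *4933408B17Rik-202* took 100% in A8, and *4933408B17Rik-201* took 100% in A12, A25 and A26, where the gene had 9, 34 and 99 counts. Of the bases of *4933408B17Rik-202*, 3.3% are in that transcript alone. The cause of this uneven division was not tested.

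**Figure D2:**
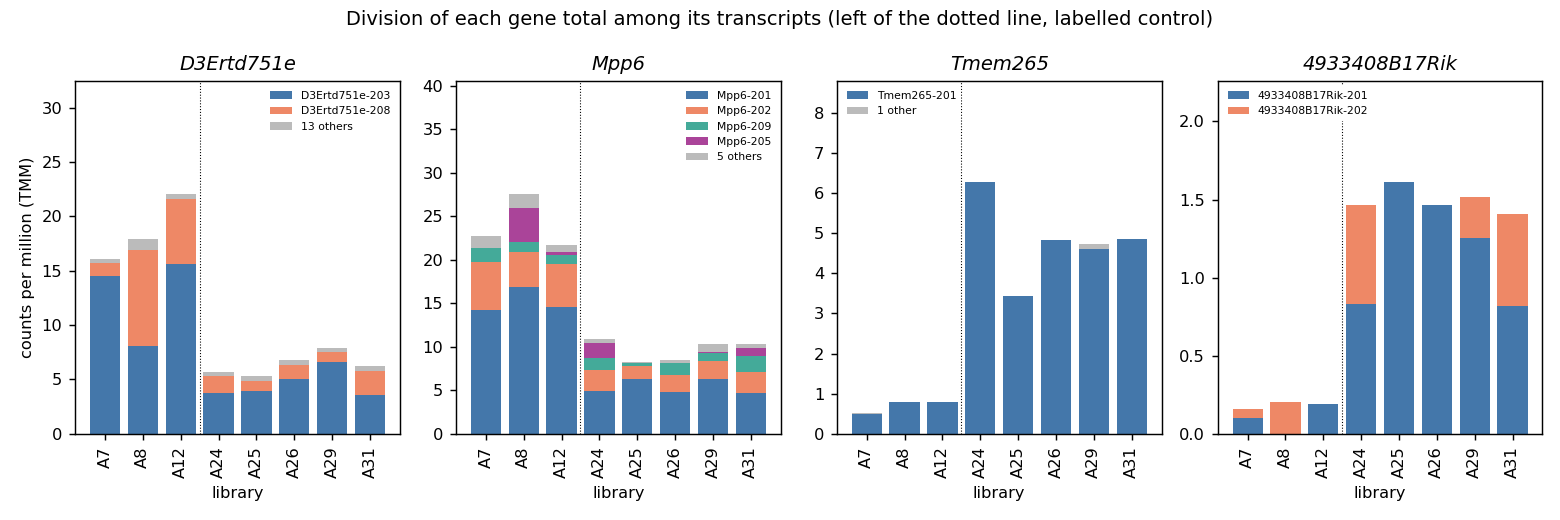
CPM (vertical axis, scaled by TMM) of each gene in the 8 libraries (horizontal axis), stacked by transcript; colours are transcripts with a mean of at least 5% of the gene's count in either group and grey is the sum of the others. *D3Ertd751e-203*, *Mpp6* transcript-201, *Tmem265* transcript-201 and *4933408B17Rik-201* take the larger part of their genes' differences; in A8 *4933408B17Rik-202* holds the whole count of its gene.

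Genes beside the 4 were read for differences along the chromosome. Among the 3 nearest on each side of each gene, 24 in all, 16 were tested and 0 were past the threshold of edgeR's test. At an unadjusted p under 0.05 there were 2 (*Gm42715* and *Dfna5*), DESeq2's Wald test called 1 (*Gm42715*) and limma voom 0. These are 12.5% and 6.25% of the 16, beside 17% of all genes tested at that unadjusted p and 5.51% called by DESeq2. Their median log2 fold change was −0.02, beside 0.00 over all genes tested, and the groups overlapped for all 16.

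*Sclt1*, which encodes a protein of the distal appendages of centrioles, starts head to head with *D3Ertd751e* on the other strand. It was at 4.07, 4.89 and 5.35 CPM (A7, A8, A12), against 3.23, 3.80, 5.03, 6.34 and 5.54 (A24, A25, A26, A29, A31). The log2 fold change of *Sclt1* was 0.02 (SE 0.249, adjusted p = 0.982, edgeR), beside −1.54 in *D3Ertd751e*. The 96 bases between the annotated genes, chr3:41742515-41742610, hold 66.7% G and C, and are shown on the plus strand from RefSeq's promoter table (GRCm38), which matched 2 of the 4 genes. The capitals mark ATTGG, the reverse complement of CCAAT, a motif searched on both strands and found 1 time.

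Sclt1 to D3Ertd751e: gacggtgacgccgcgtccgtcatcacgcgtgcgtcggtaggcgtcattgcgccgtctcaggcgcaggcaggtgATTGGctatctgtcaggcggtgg

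CCAAT on either strand was in 18.3% of all stretches of the same length just before a gene's start in that table. The match describes the sequence and marks no site. *Jade1*, a gene for a PHD finger protein that lies next on that side, had a log2 fold change of −0.16 (adjusted p = 0.788, edgeR).

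**Figure D3:**
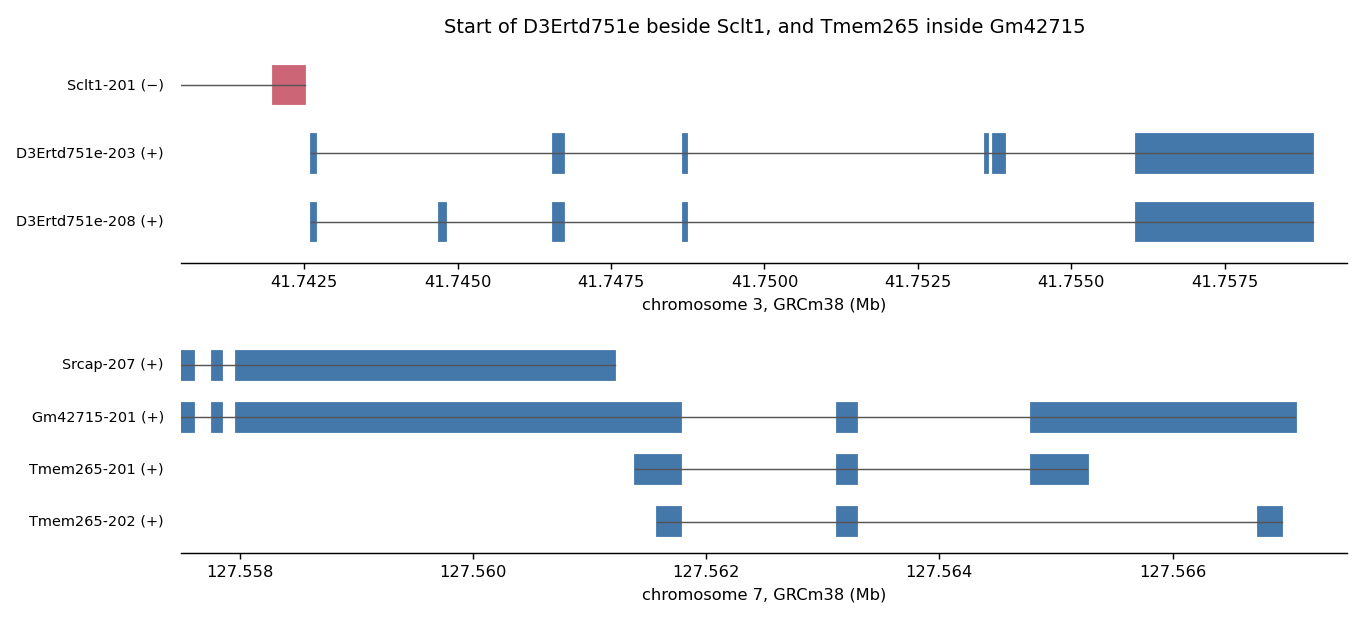
Exons (boxes) and introns (lines) along chromosomes 3 and 7 of GRCm38 (horizontal axis, Mb), to scale, with plus-strand transcripts in blue and minus-strand ones in red. *Sclt1* and *D3Ertd751e* start 96 bases apart on opposite strands, and every exon of *Tmem265* lies in an exon of *Gm42715*.

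*Mpp6* overlaps *Dfna5* (gasdermin E, *Gsdme* in the annotation) on the opposite strand, with 0 shared exonic bases. *Dfna5* had a log2 fold change of −0.70 (SE 0.298, adjusted p = 0.264, edgeR), with controls at 1.68, 1.14 and 1.99 CPM (A7, A8, A12), the other libraries between 0.733 (A24) and 1.17 (A29), and the groups overlapping. Whether the counting used strand is not given in the sources used here. Farther on, *Osbpl3*, an oxysterol-binding protein gene, had 0.35 (adjusted p = 0.685, edgeR), and *Cycs*, which encodes cytochrome c, −0.49 (adjusted p = 0.400, edgeR).

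*4933408B17Rik* lies 1146 bases after the end of *Brd8*, a bromodomain gene, and 730 bases before *Nme5*, all on the minus strand. *Brd8* was at 19.2, 16.9 and 15.1 CPM (A7, A8, A12), against 11.9, 20.1, 20.7, 18.7 and 18.8 (A24, A25, A26, A29, A31). The groups of *Brd8* overlapped, with a log2 fold change of 0.08 (adjusted p = 0.863, edgeR). *Nme5*, a nucleoside diphosphate kinase family gene, averaged 0.498 CPM in control and 0.204 in the other group, a log2 fold change of −1.21 (SE 0.569, adjusted p = 0.319, edgeR).

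The other tested neighbours had log2 fold changes between −0.27 and 0.31. They were *Fam13b* (−0.27), *Kif20a*, a mitotic kinesin (−0.19), and *Cdc23*, a subunit of the anaphase-promoting complex (0.15), beside *4933408B17Rik*. Beside *Tmem265* they were *Fbrs* (0.31), *Rnf40*, a ubiquitin ligase for histone H2B (0.25), *Phkg2*, a subunit of phosphorylase kinase (0.04), and *Ccdc189* (−0.06).

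The family and partners of *Mpp6* were counted from a list of 30 genes not picked for how they moved, though made with earlier results of these data known. Of the 26 tested, 1 was past the threshold (3.85%, beside 0.707% of all genes), and their median log2 fold change was 0.04. Neither the p55 family (6 tested), nor the L27 and PDZ partners (5 tested), nor the adhesion partners (4 tested) held a gene past it with edgeR. At an unadjusted p under 0.05 there were 2 genes in the p55 family, 1 among the L27 and PDZ partners and 0 among the adhesion partners. The whole list held 4 (15.4%), beside 17% of all genes tested. DESeq2's Wald test called *Mpp5* and *Tjp3* from the whole list (7.69%, beside 5.51% of all genes tested). From the list limma voom called 0, beside 95 of the 14851 genes tested.

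*Tjp3*, a tight junction scaffold of the MAGUK group, rose. It was at 1.49, 1.65 and 0.919 CPM (A7, A8, A12), against 5.19, 6.26, 5.08, 4.64 and 2.51 (A24, A25, A26, A29, A31). It was higher in all 5 libraries than in any control (log2 fold change 1.80, SE 0.338, adjusted p = 0.0474, edgeR). Without A31 the list again held 1 gene past the threshold, and without any other single library it held 0. Over all 8 omissions the log2 fold change of *Tjp3* lay between 1.59 and 1.97.

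The 3 most abundant of the rest were *Dlg1*, a polarity scaffold, *Tjp1*, which encodes ZO-1 of tight junctions, and *Mpp1*, the p55 protein of red cell membranes. *Dlg1* averaged 72.4 CPM in control and 69.3 in the other group (log2 fold change −0.06, adjusted p = 0.905, edgeR). *Tjp1* averaged 55.6 and 50.1 CPM (−0.15, adjusted p = 0.834, edgeR). *Mpp1* averaged 40.9 and 34.2 CPM (−0.26, adjusted p = 0.341, edgeR). *Mpp5*, known as Pals1 and named after its values were seen, was at 17, 15.7 and 17.5 CPM (A7, A8, A12), and between 9.93 (A24) and 12.2 (A26) in the other group. Its groups did not overlap, with a log2 fold change of −0.61 (SE 0.139, adjusted p = 0.0757, edgeR).

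Of the 4 genes, 2 carry names given to clones or expressed sequence tags, and such names were counted. Of 330 tested symbols that end in Rik, *4933408B17Rik* alone was past the threshold, and of the other 329 there were 0 with edgeR, 46 at an unadjusted p under 0.05, 15 with DESeq2's Wald test and 0 with limma voom. The 46 are 14.0% and the 15 are 4.56%, beside 17% and 5.51% of all genes tested. Of 6 symbols that hold Ertd, *D3Ertd751e* alone was past it, and of the other 5 there were 0 with edgeR, 0 at an unadjusted p under 0.05 and 0 with either other tool. Of 664 symbols made of Gm and digits, 5 (0.753%) were past the threshold, near the share of all genes: *Gm12663*, *Gm5931* and *Gm6685* were lower and *Gm5905* and *Gm6293* higher.

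HuR is known to bind AU-rich and U-rich parts of 3′ untranslated regions. The letters ATTTA were counted on the sense strand in the 3′ untranslated region of the coding transcript with the highest count. In *D3Ertd751e-203* there were 5 in 2797 bases (1.79 per kilobase), in *Mpp6* transcript-201 0 in 94 bases, in *Tmem265* transcript-201 0 in 325 bases and in *4933408B17Rik-201* 1 in 348 bases (2.87 per kilobase, from that 1 match). Over 14120 tested genes, 66.0% held at least 1, with a median of 1.18 per kilobase. A match is no binding site, and 0 matches say only that these letters are not in that stretch.

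The genes most like each of the 4 were found by Pearson's r of log2 CPM over the 8 libraries, among 14847 tested genes. Every gene is read in the same libraries, with their depths and labels. Thus r mostly follows the step between the labels, and r of the deviations from the group means is given beside it. For *D3Ertd751e* they were *Galnt1*, a glycosyltransferase gene (r = 0.988, deviations 0.885), *Rps6kb1*, which encodes S6 kinase (0.987, deviations 0.894), and *Lyrm7*, an assembly factor of respiratory complex III (0.978, deviations 0.676). With a prior count of 0.5, *Gm5931* took the place of *Lyrm7*. *Galnt1* was at 62.6, 63.6 and 74.7 CPM (A7, A8, A12), and between 40.8 and 46.9 in the other group.

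For *Mpp6* the most alike were *Pir*, the gene of the iron-binding protein pirin (r = 0.983, deviations 0.829), *Cacnb4*, a calcium channel beta subunit (0.981, deviations 0.611), and *Pbx3*, a homeobox gene (0.981, deviations 0.721). For *Tmem265* they were *Nap1l5*, an imprinted gene (0.978, deviations 0.632), *Rnf220*, a ubiquitin ligase gene (0.974, deviations 0.840), and *Sfn*, which encodes a 14-3-3 protein (0.974, deviations 0.685). For *4933408B17Rik* they were *Zfp691*, a zinc finger gene (0.980, deviations 0.0577), *Ssu2* (0.979, deviations 0.362) and *Ppan*, a ribosome biogenesis gene (0.975, deviations 0.723). *Zfp691* had a log2 fold change of 0.36 (adjusted p = 0.166, edgeR), beside 3.01 for *4933408B17Rik*. It shared the direction between the labels with *4933408B17Rik*, not the size, and hardly any of the spread within them.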

How the data were processed

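BAT RNA was sequenced as poly(A) TruSeq libraries from 8 animals. The authors deposited estimated counts per transcript, not normalized, on GRCm38, with reads that fit several transcripts divided among them; their methods name CLC Genomics Workbench for mapping, and the program that wrote the counts is not given in the sources used here. Of 105129 transcript identifiers, 103635 matched GENCODE M21 without the version.

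Estimated counts were summed by gene symbol, and levels in CPM rest on these sums before any rounding. Genes and transcripts kept by filterByExpr each got TMM factors. The labels were compared by the quasi-likelihood F-test of edgeR 4.0.16 (R 4.3.3), with Benjamini-Hochberg adjustment over all tested. Fits of transcripts used the factors of transcripts, while their CPM used those of genes, so that transcripts add up to their gene. Each SE from edgeR is the size of the log2 fold change divided by the square root of F. Marker scores, the mean log2 CPM of a list (prior count 2), were compared by exact permutation over 56 assignments of the labels, where the smallest p is 0.0179. Alternatives used limma 3.58.1, DESeq2 1.42.0, total counts, other filters, the transcript with the highest count, a muscle covariate, and libraries left out singly or A24 with A25. The tests were tried on simulated data. Scores, shares and figures came from pandas 2.3.3, scipy 1.17.1, numpy 2.4.6, statsmodels 0.14.6 and matplotlib 3.10.9 under Python 3.11.15.

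The members and lists were chosen with earlier results of these data known. Genes named are the 4, MAGUK genes past the threshold and the 3 most abundant others, tested neighbours, the 3 genes most correlated with each of the 4, the most abundant gene of each marker list and *Elavl1*. Also named are genes past the threshold in a marker list or a class of clone names, marker genes at 0 in every library, genes nearest the limit of the rule, and *Mpp5*, chosen after its values were seen. Transcripts named held at least 5% of their gene, belonged to a gene with 2, or were tested with groups that lay apart. Neighbours were matched through transcript identifiers, so *Gsdme* appears under its older symbol *Dfna5*.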

Additional observations from a re-analysis of the deposited data

Results flagged for a closer look

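Among the 5 libraries labelled *Adipo-HuR-/-*, 50 values were searched for 1 library far from the other 4, and 3 were found; chance gives about 1 in 20. The share of *Tmem265* transcript-201 was 97.7% in A29 and 100% in the other 4. A share cannot pass 100%, so any lower value would have been found here, and the chance rate does not apply to it. The skeletal muscle score was 3.28 in A31 and between −2.61 and −2.45 in the other 4. *Brd8* was at 11.9 CPM in A24 and between 18.7 and 20.7 in the other 4.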

How the results depend on the processing

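Each difference of the 4 genes kept its direction under every alternative that gave a value. Of 67 such values, 64 moved by less than the SD between libraries. These include the fits without 1 library, which chose the genes, so for those fits stability was fixed beforehand. *4933408B17Rik* gave no value with a filter of 10 counts in every library. The threshold was missed by *D3Ertd751e* and *4933408B17Rik* with the highest transcript, by *Mpp6* with the muscle covariate, and by these 3 genes without A24 and A25. With total counts only, *Mpp6* was at −1.07 and *4933408B17Rik* at 3.24, but this scaling moved the median of all genes by 0.23, and relative to that median they were at −1.30 and 3.02. The transcript with the highest count in place of the sum gave 3.6 for *4933408B17Rik*, and the cause was not tested. Leaving out 1 library gave −1.64 to −1.41 for *D3Ertd751e*, −1.38 to −1.20 for *Mpp6*, 2.60 to 2.89 for *Tmem265* and 2.92 to 3.08 for *4933408B17Rik*. These ranges come from the fits that chose the 4 genes and are a description, not a test. For *Elavl1*, which was not chosen, the range was 0.11 to 0.24. Among 86 transcript differences 4 moved further: *Mpp6* transcript-201 and *Mpp6* transcript-202 with total counts only (−1.24 and −1.03), *4933408B17Rik-201* without A12 (4.41), and *Mpp6* transcript-205 without A8, where it changed sign (2.07). *Mpp6* transcript-209, near 0, also changed sign, without A7, without A25, without both A24 and A25 and with total counts only. The 105 genes past the threshold (69 lower, 36 higher) were 818 with DESeq2's Wald test, 16 with the highest transcript, 15 with the muscle covariate and 5 without A24 and A25, and 25 lower and 96 higher with total counts only. They were 13 without A7, 190 without A12, 15 without A25, 10 without A26, 14 without A29 and 17 without A31. The 4 transcripts past the threshold were 1 with total counts only, 25 with at least 10 counts in every library, 0 without A24 and A25, and 0 to 2 with 1 library left out. Without A24 and A25, 0 genes of the MAGUK list and 0 of each class of clone or model names were past the threshold. With 1 library left out, the MAGUK list held 0 to 1, the neighbours 0 to 1 (*Gm42715* without A8, and 1 with total counts only), Rik symbols 1 to 2 (2 with total counts only), Ertd symbols 1 and Gm symbols 1 to 9. The causes were not tested. Small counts limit how well the level of *4933408B17Rik* is known in the control libraries, with at most 10 counts in each.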
